A study of Mus musculus and Acomys cahirinus with 25 samples.

Results

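The ADAM, ADAMTS and ADAMTS-like genes are the protease family described here, taken as every gene symbol made of Adam, Adamts or Adamtsl followed directly by a number. The rule found 57 genes among the 24500 symbols counted, which were 33 Adam, 19 Adamts and 5 Adamtsl genes. They were followed in 25 RNA-seq libraries of healing skin wounds and of unwounded skin. The secreted ADAMTS genes were mainly transcripts of the dermis, and the sheddases Adam10 and Adam15 had the highest levels per length in epidermis of both species.

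ADAM proteins are membrane-anchored metalloproteases. The active ones cut the outer part off other membrane proteins, which is called shedding: ADAM10 is known for cutting Notch receptors and E-cadherin, and ADAM17 for releasing TNF and ligands of the EGF receptor. ADAMTS proteins are secreted and act on the extracellular matrix, some by trimming the amino-terminal propeptide from procollagen (ADAMTS2, ADAMTS3 and ADAMTS14) and others by cutting large proteoglycans such as versican and aggrecan. ADAMTS-like proteins resemble ADAMTS proteins but have no protease domain. A large group of ADAM genes is known mainly from testis and epididymis.

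All wounds were full-thickness excisions of dorsal skin, in the setting of hair follicle formation after wounding. Laboratory mice, for which the study names C57BL/6J as its primary strain, were wounded at 4 weeks of age and sampled at post-wound day 14 (PWD14), with the wound center taken by punch, the wound margin as the remainder, and epidermis and dermis separated by hand. They gave 2 epidermis libraries of wild-type center, 2 of wild-type margin, 5 dermis libraries of wild-type center, 2 of wild-type margin and 2 of center from K14-Cre-Twist1 mice, in which Twist1 is deleted by a Cre recombinase under a keratinocyte promoter. The K14-Cre-Twist1 mice came from a cross of other lines and their controls are given as wild-type Twist1+/+ mice, with no strain stated for either. Spiny mice (Acomys cahirinus, 8 weeks of age) gave epidermis and dermis of the whole wound, or of unwounded skin at PWD0, with 2 epidermis libraries each at PWD14 and PWD21, 2 dermis libraries each at PWD0 and PWD21, and 1 library of each layer at the other days. Their layers were separated by hand after hours in trypsin-EDTA with the epidermal side down, a step not given for laboratory mice. The study's supplement gives slightly different days for the same spiny mouse libraries, and the days used here are those of the labels. The study describes its replicates as independent experiments, and the labels do not tie libraries to single animals, so p-values measure the spread between these libraries. The first 2 wild-type center dermis libraries were compared with the margin, and the other 3 with K14-Cre-Twist1, as the study grouped them.

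Expression is given as CPM, the read count of a gene scaled to its library's reads on genes, with TMM scaling within each species. Reads on genes ranged from 19413261 to 86532134 in laboratory mouse libraries and from 5669760 to 34751956 in spiny mouse libraries, and a floor of 3 counts equalled at most 0.155 and 0.529 CPM before TMM scaling. Floors cover counting error only. Spiny mouse reads were aligned to the laboratory mouse genome, so no level was compared between the species. Epidermis of laboratory mice was sequenced with paired ends and dermis with single ends, so layer and read type cannot be told apart there, while both layers of the spiny mouse had the same read type. A call means a p under 0.05 in the quasi-likelihood test of edgeR once adjusted over all tested genes (Benjamini-Hochberg). In bulk tissue, fewer cells of a type and less RNA per cell cannot be told apart. Summed CPM of 14 keratinocyte markers was between 222377 and 297713 in laboratory mouse epidermis and between 29.9 and 3759 in wild-type laboratory mouse dermis. The library labelled K14-Cre-Twist1 replicate 2 stood apart from the other dermis libraries with 31845 CPM of these markers.

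Members differed widely in level, and levels between genes are compared here per kilobase of exon. Exon length is that of all exons of a gene in GENCODE, merged, while the counts were made on RefSeq genes. The effect of this difference on the orders was not tested. Taking a mean of 1 CPM or more as the mark, 21 members were present in laboratory mouse epidermis, 35 in laboratory mouse dermis, 20 in spiny mouse epidermis and 36 in spiny mouse dermis. In laboratory mouse epidermis, Adam10 had the highest mean level per length (40.4 CPM per kb), followed by Adam15 (28.7), Adam9 (22.7), Adam17 (18.2), Adam8 (11.0) and Adamts1 (10.9). In spiny mouse epidermis the order was Adam10 (51.5 CPM per kb), Adam15 (13.3), Adam17 (12.8) and Adamtsl5 (7.53), with Adamts1 at 5.14. Laboratory mouse dermis was led by Adam12 (53.5 CPM per kb), whose protein binds integrins and syndecans and cleaves growth factor binding proteins, and by the procollagen proteinase Adamts2 (48.6), followed by Adam9 (35.4) and Adam19 (29.9), with Adamts12 at 12.6. Spiny mouse dermis was led by Adam10 (37.1 CPM per kb), Adamts2 (31.7), Adamts17 (21.4) and Adamts4 (15.2), with Adamts10 at 9.14. The neighbours in these orders were not tested against each other. Differences in how well spiny mouse reads align to each gene may enter the spiny mouse order and were not tested.

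The 21 reproductive tract ADAM genes had little signal in skin. Their summed level was at most 4.3 CPM in any epidermis library and at most 1.5 CPM in any spiny mouse dermis library, and reached 26.2 CPM in 1 laboratory mouse dermis library, where Adam1a alone had 18.7 CPM. Exons annotated to Adam1a overlap those of Mapkapk5 and Gm42878 on the same strand in GENCODE, so reads of these genes may not be told apart, and how the counting handled them is not stated. Of the 57 members, 11 share exon bases with another annotated gene. Among these overlaps were 311 bases between Adam17 and Iah1 and 122 bases between Adamts7 and Tbc1d2b, both on opposite strands. Adam15, Adam19, Adamts8 and Adamts9 share between 8.25% and 20.6% of their exon bases with the opposite-strand gene that overlaps each of them most. Spiny mouse libraries were not strand-specific, and in them reads of such a pair cannot be told apart.

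**Figure D1:**
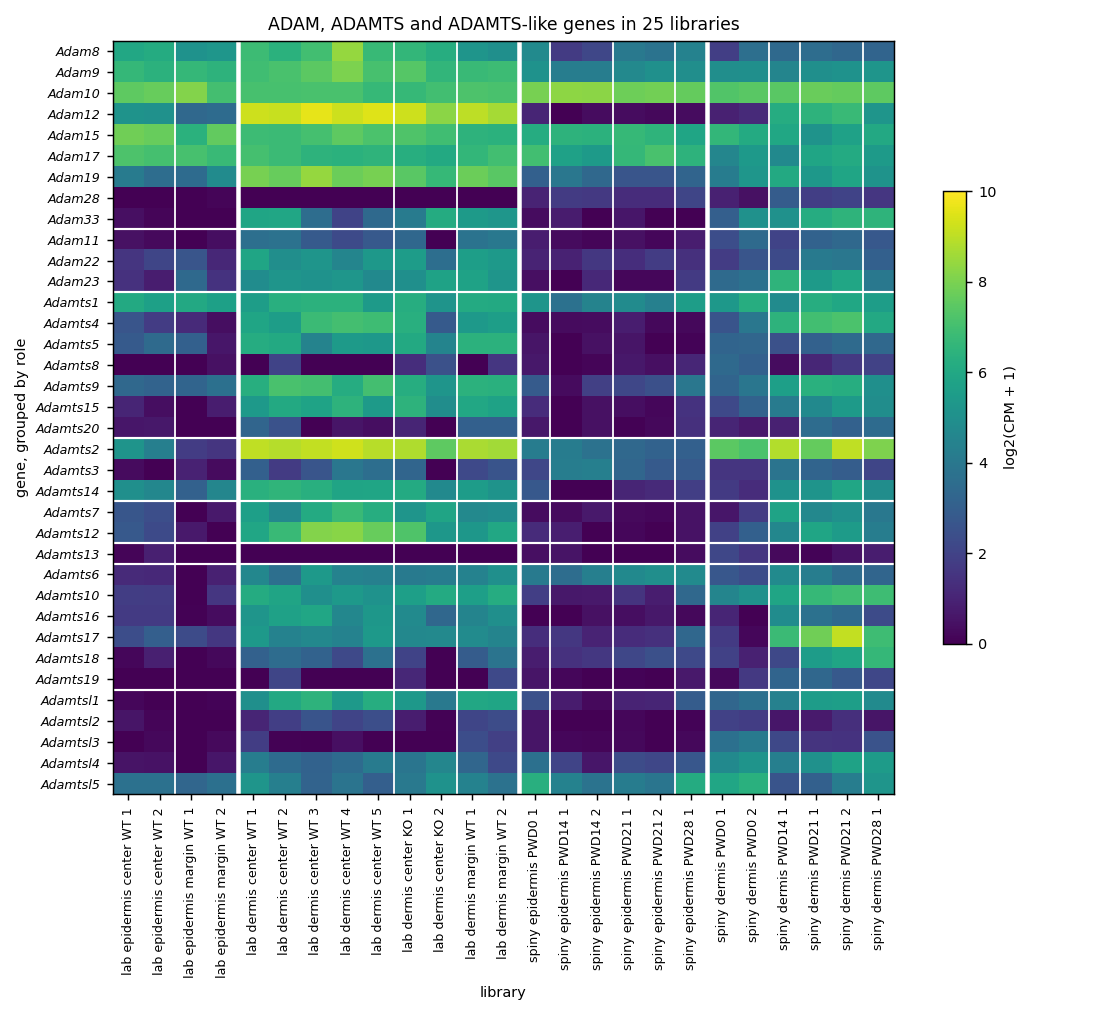
Heat map of log2(CPM + 1) for each member outside the reproductive tract group that reached 1 CPM in any library, with genes grouped by role in rows and the 25 libraries in columns, thick lines separating species and layers and thin lines the groups. Adam10 is bright in every column, while Adam12, Adamts2 and most other ADAMTS genes are bright in dermis and dark in epidermis.

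Epidermis was compared with dermis in the spiny mouse at PWD21, in the laboratory mouse wound center and in the wound margin, to ask which layer of a healing wound carries each protease. In the spiny mouse, 31 of 36 tested members differed, 3 higher in epidermis and 28 higher in dermis, where 62.9% of all tested genes were called and 33.5% were called lower in epidermis. In the laboratory mouse wound center, 27 of 34 differed, 2 higher in epidermis and 25 higher in dermis, beside 51.8% of all genes called and 25% called lower in epidermis. This center comparison pooled all 5 wild-type center dermis libraries, the 2 compared with the margin and the 3 compared with K14-Cre-Twist1. With the first 2 alone, 26 members were called, and 24 calls were shared with the same direction. The share over all genes in that fit is not given here. In the margin, 28 of 38 differed, and each of the 28 was higher in dermis, beside 47.7% of all genes called and 26.8% called lower in epidermis. The median log2 fold change over tested members, epidermis minus dermis, was -4.59, -4.04 and -4.61 in these comparisons, beside -0.06, -0.08 and -0.16 over all genes.

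The procollagen proteinase Adamts2 had 9.30 and 7.83 CPM in spiny mouse epidermis and 199 and 528 CPM in dermis at PWD21 (log2 fold change -5.42 ± 0.49, adjusted p = 6.7e-05). In the laboratory mouse it had 2.41 and 1.88 CPM in margin epidermis and 419 and 386 CPM in margin dermis (log2 fold change -7.56 ± 0.42, adjusted p = 6e-06). No epidermis library overlapped a dermis library for this gene. Adam12 had 0.246 and 0.173 CPM in spiny mouse epidermis and 87.5 and 110.2 CPM in dermis (log2 fold change -8.81 ± 0.33, adjusted p = 5e-06), and 9.34 and 10.4 against 514 and 398 CPM in the laboratory mouse margin (log2 fold change -5.50 ± 0.38, adjusted p = 6.5e-06). Adamts12, known for cutting cartilage oligomeric matrix protein (COMP), had 0.123 and 0 CPM in spiny mouse epidermis and 58.5 and 44.1 CPM in dermis (log2 fold change -9.29 ± 0.56, adjusted p = 9.1e-06). Its epidermis libraries held 4 and 0 counts, so the size of this fold is uncertain. The aggrecan-cutting Adamts4 had 0.739 and 0.173 against 125 and 143 CPM (log2 fold change -8.04 ± 0.47, adjusted p = 1.1e-05). The spiny mouse epidermis libraries held 8 and 3 counts of Adam12 and 24 and 3 of Adamts4, so the sizes of these folds are uncertain too. Of the 7 proteoglycan-cleaving members, 7 were higher in dermis in the spiny mouse, 4 of 6 tested in the laboratory mouse center and 5 of 6 tested in the margin. The adhesion genes Adam11, Adam22 and Adam23, whose proteins lack the zinc-binding site of the active proteases, were higher in dermis in each of the 3 comparisons. Adam33, a gene known from airway smooth muscle and fibroblasts, had 0 counts in both margin epidermis libraries and 42.2 and 37.1 CPM in margin dermis, which is at least 330-fold higher, taking 3 counts in the shallower epidermis library as the floor.

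The members that did not follow this pattern were sheddases and a few others. Adam15, whose protein carries an integrin-binding motif, had 103 and 89.2 CPM in spiny mouse epidermis and 34.5 and 51.2 CPM in dermis (log2 fold change 1.14 ± 0.24, adjusted p = 0.00445). Adam17 had 101 and 141 CPM in epidermis and 57.1 and 67.5 CPM in dermis of the same day (log2 fold change 0.92 ± 0.22, adjusted p = 0.00755). In these libraries each epidermis value lay above each dermis value. Adam10 was level between the layers in the spiny mouse, at 223 and 230.5 CPM in epidermis and 212 and 198 CPM in dermis (log2 difference 0.11 ± 0.18, adjusted p = 0.620). In the laboratory mouse center, Adam10 (log2 fold change 0.58 ± 0.18, adjusted p = 0.0217) and Adam15 (0.66 ± 0.21, adjusted p = 0.0241) were called higher in epidermis with TMM scaling, but their sign turned, to -0.15 and -0.056, with library size alone, a scaling that moved the median of all genes from -0.08 to -0.80. Adam9 was called lower in center epidermis (-0.82 ± 0.29, adjusted p = 0.0407) and was not called in the other 2 comparisons (-0.19 ± 0.21 in the spiny mouse and -0.21 ± 0.30 in the margin). Adam17 was not called in the laboratory mouse (0.47 ± 0.22 in the center and 0.18 ± 0.31 in the margin).

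Adamts6 lay on opposite sides in the species. In the spiny mouse it had 25.9 and 29.4 CPM in epidermis and 17.9 and 10.5 CPM in dermis (log2 fold change 0.92 ± 0.30, adjusted p = 0.0296). In the laboratory mouse it had 1.29 and 1.22 CPM in center epidermis and between 11.5 and 40.8 CPM in center dermis (log2 fold change -4.20 ± 0.59, adjusted p = 0.00031), and the margin gave the same direction (log2 fold change -5.42 ± 0.79, adjusted p = 0.00029). The spiny mouse call was lost for Adamts6 without the second epidermis library (adjusted p = 0.0625) or without the second dermis library (log2 difference 0.57, adjusted p = 0.0518). The difference between the species was not tested. Adamts3, a partner of Adamts2 in procollagen processing, had 8.93 and 6.10 CPM in spiny mouse epidermis and 8.29 and 6.66 CPM in dermis, and was not called (log2 difference -0.01 ± 0.32).

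Genes that act with these proteases followed the layers as well. Of 14 tested matrix substrates, 12 were lower in spiny mouse epidermis and none was higher, and in the laboratory mouse center and margin 11 of 13 were lower in each. Shed membrane substrates went the other way in the laboratory mouse wound center. There, 17 of 21 tested were higher in epidermis, beside 4024 of all 15017 tested genes. Among the 17 were the EGF receptor ligands Areg, Epgn, Ereg and Tgfa and the adhesion protein Cdh1 (E-cadherin). In the spiny mouse 10 of 22 were higher and 4 lower, beside 4398 and 5011 of all 14966 tested genes. Inhibitors of metalloproteases were lower in epidermis for 6 of 7 tested in the spiny mouse and for each of 5 tested in the laboratory mouse comparisons. Dermal cell markers moved with these results: of 15 fibroblast markers, 14 were lower in epidermis in each comparison, and each of 8 endothelial and 10 macrophage markers was lower as well. Their part in the members' differences was not tested.

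**Figure D2:**
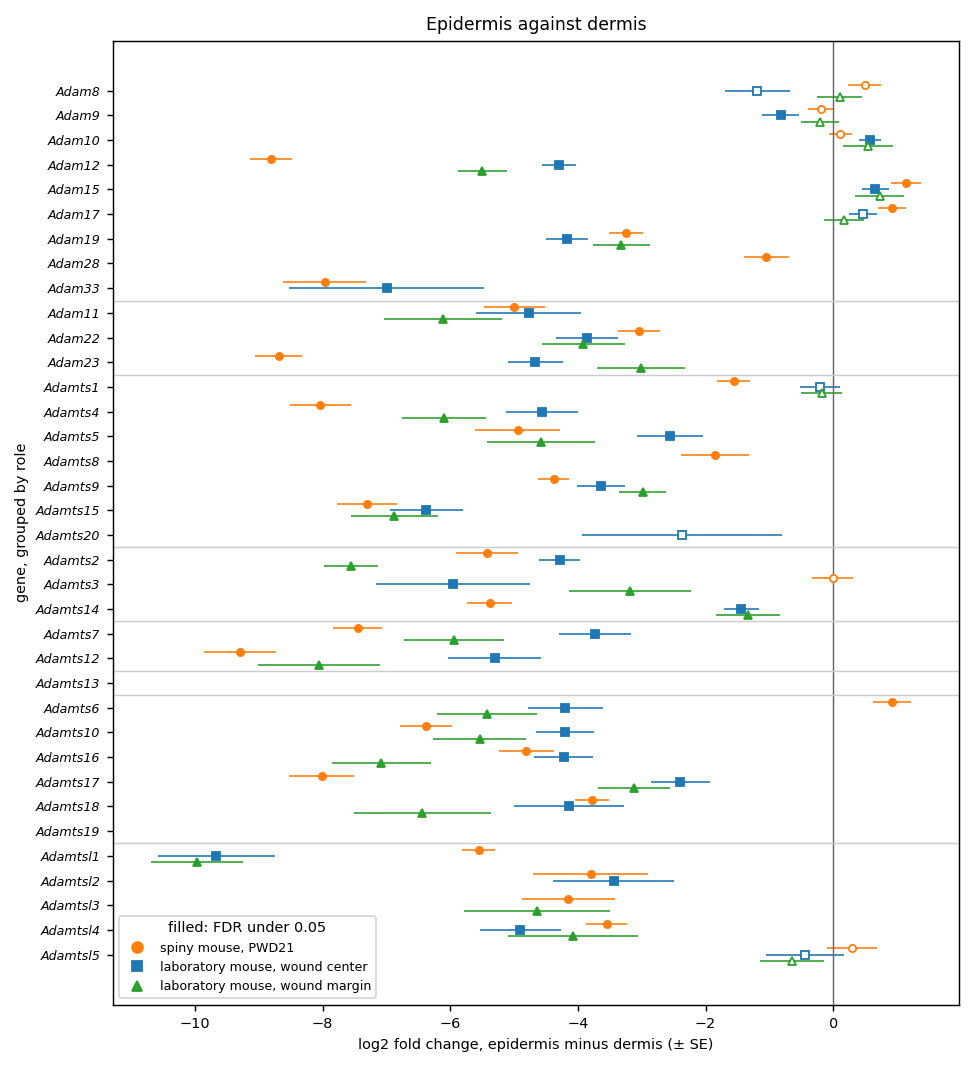
Log2 fold change of tested members, epidermis minus dermis, with bars of 1 SE, for the spiny mouse at PWD21 (2 against 2 libraries), the laboratory mouse wound center (2 against 5) and the wound margin (2 against 2), with filled symbols for an adjusted p under 0.05. Only members outside the reproductive tract group that reached 1 CPM in any library are drawn. Members with at most 3 counts in every library of a layer are left out of that comparison, nearly all filled symbols lie left of 0, and Adamts6 of the spiny mouse lies right of it.

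Spiny mouse dermis at PWD21 was compared with unwounded dermis at PWD0 to ask how the family changes as the wound heals. Of 36 tested members, 24 were called, 19 higher at PWD21 and 5 lower, beside 26.2% of all tested genes called and 12% called higher. Leaving out 1 library gave between 14 and 26 calls, with 14 without the first PWD21 library and 15 without the second, and the calls of Adam15, Adam22, Adam33, Adamts3, Adamts6, Adamts13, Adamts16 and Adamts19 were lost without either of them. The median log2 fold change over the members was 1.87, beside 0.03 over all genes. The largest change was that of Adamts17, at 2.27 and 0.13 CPM in the PWD0 libraries and 224 and 541 CPM at PWD21 (log2 fold change 8.28 ± 0.99, adjusted p = 0.00103). Its PWD0 libraries held 13 and 1 counts, so the size of this fold is uncertain. The PWD21 libraries differed from each other, but both lay far above PWD0, as did the single libraries of PWD14 (111 CPM) and PWD28 (119 CPM). ADAMTS17 is a secreted protease linked to fibrillin and to a Weill-Marchesani-like syndrome.

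Adamts17 (GRCm38 chr7:66839699-67153171) is shown with the sequence around its start because it rose the most in this comparison. The RefSeq sequence below covers 250 bases before and 50 from a transcript start at position 66839735, which lies inside the printed gene span, in the laboratory mouse (chr7:66839485-66839784, plus strand), with matches to the E-box CANNTG, the motif of the factor class of Twist1, in capitals. The motif reads the same on both strands, and 72.3% of all 32851 RefSeq promoters of this length hold it.
Adamts17: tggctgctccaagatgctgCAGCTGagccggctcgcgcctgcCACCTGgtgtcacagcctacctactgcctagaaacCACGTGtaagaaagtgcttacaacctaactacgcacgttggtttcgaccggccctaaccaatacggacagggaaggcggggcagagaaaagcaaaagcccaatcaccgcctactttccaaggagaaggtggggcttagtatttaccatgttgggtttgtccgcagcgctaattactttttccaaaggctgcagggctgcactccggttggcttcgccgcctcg
The window held 3 matches to CANNTG. No match to the AP-1 motif TGANTCA, held by 7.81% of all promoters, or to TATAAA, held by 13.6%, was in these letters. A match is a description of the sequence, and spiny mouse sequence was not used here.

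Adam12 showed the next largest rise among the members. It had 0.874 and 1.25 CPM at PWD0 and 87.5 and 110.2 CPM at PWD21 (log2 fold change 6.40 ± 0.38, adjusted p = 0.00015), with 71.2 CPM at PWD14 and 36.4 CPM at PWD28. Every wound library lay above both PWD0 libraries, which held 5 and 10 counts, so the size of this fold is uncertain. Each of the 6 remaining ADAMTS genes without a grouped role rose: next to Adamts17 these were Adamts18 (2.80 and 0.878 against 45.4 and 58.5 CPM, log2 fold change 4.74 ± 0.53, adjusted p = 0.00079), Adamts16 (1.05 and 0 against 12.2 and 9.66 CPM, log2 fold change 4.41 ± 0.92, adjusted p = 0.0104), Adamts10, Adamts19 and Adamts6. Adamts16 had 6 and 0 counts in the PWD0 libraries, so the size of its fold is uncertain. Adamts10, which like Adamts17 is linked to fibrillin, had 22.2 and 32.4 CPM at PWD0 and 102 and 121 CPM at PWD21. Adamts6 had 5.59 and 4.14 against 17.9 and 10.5 CPM (log2 fold change 1.44 ± 0.44, adjusted p = 0.0421).

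Both COMP-cleaving members rose. Adamts7 had 0.524 and 2.38 CPM at PWD0 and 24.7 and 31.6 CPM at PWD21 (log2 fold change 4.11 ± 0.58, adjusted p = 0.00214). Its PWD0 libraries held 3 and 19 counts, so the size of this fold is uncertain. Adamts12 had 2.80 and 7.40 against 58.5 and 44.1 CPM (log2 fold change 3.22 ± 0.47, adjusted p = 0.00239). Their substrate gene Comp moved the other way, from 167 and 73.5 CPM at PWD0 to 0.243 and 0.798 CPM at PWD21 (log2 fold change -7.92 ± 0.69, adjusted p = 0.00033). Among the proteoglycan-cleaving members, 4 of 7 rose, namely Adamts4 (5.07 and 14.4 against 125 and 143 CPM, log2 fold change 3.67 ± 0.47, adjusted p = 0.00134), Adamts9, Adamts15 and Adamts20, and Adamts8 fell from 9.61 and 7.40 to 1.13 and 2.17 CPM (log2 fold change -2.46 ± 0.51, adjusted p = 0.0102). Adamts9, which cuts versican and was 8.39 and 14.2 CPM at PWD0, was 81.4 and 74.1 CPM at PWD21 (log2 fold change 2.68 ± 0.34, adjusted p = 0.00131). Adamts1 and Adamts5 were not called, at log2 differences of 0.16 ± 0.34 and -0.07 ± 0.38. Acan, the gene of aggrecan, a substrate of this group, rose from 0.524 and 0.376 to 15.3 and 46.8 CPM (log2 fold change 6.0 ± 0.68, adjusted p = 0.00077). Both PWD0 libraries held 3 counts of Acan, the floor used here, so the size of this fold is uncertain.

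Among the procollagen proteinases, Adamts14 (2.27 and 1.38 against 35.0 and 58.9 CPM, log2 fold change 4.58 ± 0.45, adjusted p = 0.00046) and Adamts3 rose. Adamts2 had 176 and 144 CPM at PWD0 and 199 and 528 CPM at PWD21, a difference of 1.06 ± 0.43 (log2) that was not called (adjusted p = 0.101), and the PWD21 libraries lay far apart. Among the sheddases, next to Adam12, Adam33 rose, from 7.17 and 32.2 to 71.7 and 89.6 CPM (log2 fold change 1.93 ± 0.57, adjusted p = 0.0381), its PWD0 libraries differing by 4.50-fold. Adam15 fell from 98.4 and 68.3 to 34.5 and 51.2 CPM (log2 fold change -1.08 ± 0.32, adjusted p = 0.0400). Adam9 (-0.03 ± 0.28), Adam10 (0.22 ± 0.27) and Adam17 (0.86 ± 0.33, adjusted p = 0.0843) were not called. The adhesion genes Adam22 and Adam23 rose, Adam23 from 9.96 and 12.2 to 42.7 and 58.7 CPM. Adamts13, the protease of von Willebrand factor, fell from 3.32 and 2.01 to 0.0809 and 0.413 CPM (log2 fold change -3.43 ± 0.84, adjusted p = 0.0199). Its PWD21 libraries held 2 and 15 counts, so the size of this fold is uncertain. Of the ADAMTS-like genes, Adamtsl1 rose, while Adamtsl3 (12.1 and 15.8 against 1.82 and 1.76 CPM, log2 fold change -3.06 ± 0.42, adjusted p = 0.00182) and Adamtsl5 (58.9 and 80.4 against 7.48 and 17.8 CPM, log2 fold change -2.58 ± 0.42, adjusted p = 0.00409) fell.

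Members reached their highest mean on different days. Of 35 members averaging 1 CPM or more over the 4 days of dermis, the highest day was PWD0 for 5, PWD14 for 9, PWD21 for 14 and PWD28 for 7. The shares of these days, in that order, over 13688 genes were 23.9%, 30.0%, 27.6% and 18.4%. At PWD14 the highest included Adam19, Adam23, Adamts2, Adamts7 and Adamts16, and Adamts7 had 54.3 CPM there against 15.1 CPM at PWD28. At PWD21 they included Adam12, Adamts4, Adamts9, Adamts12, Adamts14 and Adamts17, and at PWD28 Adam33, Adamts10 and Adamts18. Adamts18 had 3.53 CPM at PWD14 and 101 CPM at PWD28. PWD14 and PWD28 had 1 library each, and these days were not tested.

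Other genes and cell markers moved in the same comparison. Of 14 tested matrix substrates, 8 rose, among them Fbn2 (log2 fold change 5.10 ± 0.33, adjusted p = 0.00019), Col5a1 and Col5a2, and 1, Comp, fell. None of the 9 partners of ADAM10 and ADAM17 was called. Of 15 fibroblast markers 8 rose and none fell, with a summed level of 9239 and 7046 CPM at PWD0 and 28750 and 29368 CPM at PWD21. Each of 6 adipocyte markers fell (963 and 801 against 221 and 117 CPM), and 12 of 14 keratinocyte markers fell (12677 and 7631 against 703 and 1341 CPM). The part of these cell types in the members' changes was not tested.

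**Figure D3:**
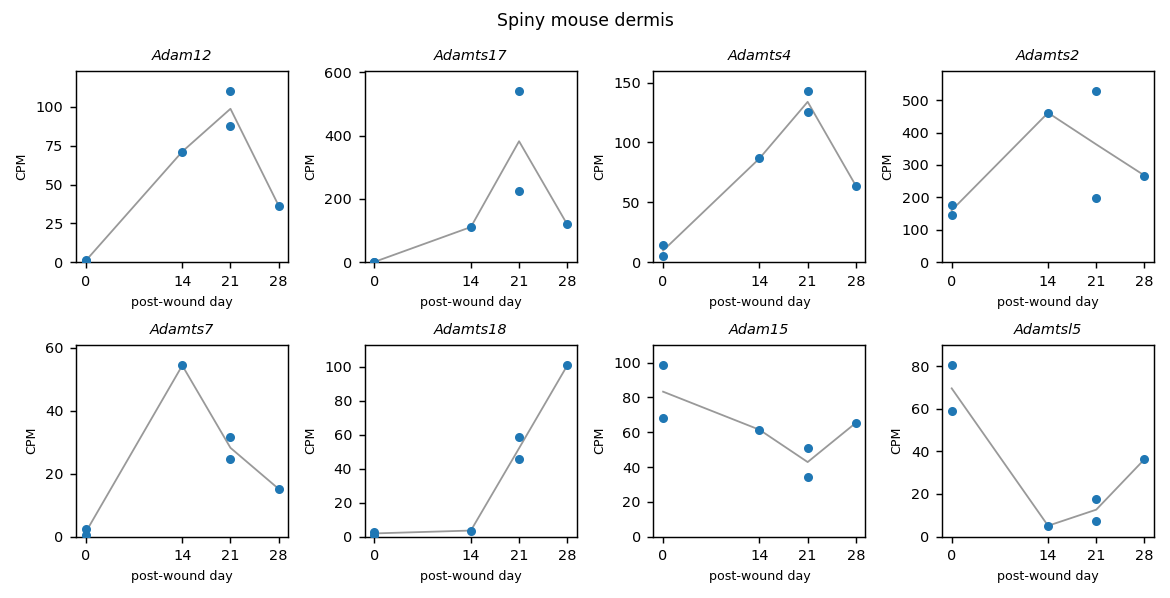
CPM of 8 members in spiny mouse dermis by post-wound day, with 1 point per library and a grey line through the mean of each day, on axes that start at 0. Adam12, Adamts17 and Adamts4 are near 0 at day 0 and highest at day 21, Adamts7 is highest at day 14, Adamts18 at day 28, and Adamtsl5 is highest at day 0.

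Spiny mouse epidermis was compared between PWD14 and PWD21, and 9 of 20 tested members were called, 4 higher and 5 lower at PWD14, where 46.6% of all tested genes were called. The members' share was thus near that of all genes, of which 3011 were called higher and 2991 lower at PWD14. Leaving out 1 library gave between 4 and 11 calls. Adam17 had 52.0 and 42.3 CPM at PWD14 and 101 and 141 CPM at PWD21 (log2 fold change -1.30 ± 0.21, adjusted p = 0.00062), beside 126 CPM at PWD0 and 86.3 CPM at PWD28, so that the PWD14 libraries were the lowest of the layer. Adam10 had 314 and 303 against 223 and 230.5 CPM (log2 fold change 0.51 ± 0.15, adjusted p = 0.0173), a difference that turned to -0.048 with library size alone, which moved the median of all genes from -0.04 to -0.59, and that was not called without either PWD21 library. Adam8, a sheddase known from leukocytes, had 2.30 and 3.40 CPM at PWD14 and 15.4 and 13.1 CPM at PWD21 (log2 fold change -2.24 ± 0.34, adjusted p = 0.00047). Adam9 was also lower at PWD14, at 17.7 and 17.7 against 25.4 and 31.5 CPM (log2 fold change -0.62 ± 0.22, adjusted p = 0.0427), a call lost without either PWD21 library. Adam19, which cleaves neuregulin, was higher, at 14.6 and 9.30 against 5.20 and 5.18 CPM (log2 fold change 1.24 ± 0.31, adjusted p = 0.00776). Adam12 was at most 1.08 CPM in every library of the layer and was not tested.

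Adam17 (GRCm38 chr12:21323509-21373632) is shown with its promoter as the sheddase of EGF receptor ligands that was called here. The window is chr12:21373583-21373882, minus strand, with the E-box CANNTG in capitals.
Adam17: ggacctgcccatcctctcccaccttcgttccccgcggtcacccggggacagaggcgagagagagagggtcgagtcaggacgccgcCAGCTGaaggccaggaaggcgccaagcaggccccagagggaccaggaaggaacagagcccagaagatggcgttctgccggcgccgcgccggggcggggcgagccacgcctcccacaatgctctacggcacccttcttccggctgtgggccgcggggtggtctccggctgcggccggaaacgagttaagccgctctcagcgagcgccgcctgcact
It held 1 match to CANNTG and none to TGANTCA or TATAAA.

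The procollagen proteinases were all called in epidermis, in different directions. Adamts3 had 17.9 and 18.9 CPM at PWD14 and 8.93 and 6.10 CPM at PWD21 (log2 fold change 1.32 ± 0.27, adjusted p = 0.00251), and 3.40 CPM at PWD0. Adamts2 had 17.2 and 12.7 against 9.30 and 7.83 CPM (log2 fold change 0.84 ± 0.27, adjusted p = 0.0265), a call lost without the first PWD14 library or either PWD21 library. Adamts14 had 0 counts in both PWD14 libraries and 1.05 and 1.27 CPM at PWD21, which is at least 3.36-fold higher taking 3 counts in the shallower library as the floor, and the call was lost without the second PWD21 library. Adamts6 had 10.9 and 18.9 CPM at PWD14 and 25.9 and 29.4 CPM at PWD21 (log2 fold change -0.80 ± 0.27, adjusted p = 0.0290), and leaving out the first PWD14 library or either PWD21 library ended its call. Adamtsl5 was not called (log2 difference 0.13 ± 0.28), and had 77.5 CPM at PWD0 and 70.7 CPM at PWD28 against 13.0 to 20.8 CPM between. In dermis the same gene was 5.07 CPM at PWD14 against 58.9 and 80.4 CPM at PWD0. Of 20 members averaging 1 CPM or more in this layer, the highest day was PWD0 for 7, PWD14 for 3, PWD21 for 4 and PWD28 for 6, beside 28.4%, 32.4%, 22.3% and 16.9% of 12618 genes.

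Of 21 tested substrates of the sheddases, 6 were higher and 4 lower at PWD14, a share near the 46.6% of all genes called. Areg, the gene of amphiregulin, an EGF receptor ligand released by ADAM17, had 251 and 218 CPM at PWD14 and 43.6 and 22.7 CPM at PWD21 (log2 fold change 2.86 ± 0.27, adjusted p = 5.2e-05). Hbegf, the gene of another such ligand, had 134 and 105 against 50.2 and 25.6 CPM (log2 fold change 1.70 ± 0.27, adjusted p = 0.00063), while Btc went down (log2 fold change -2.23 ± 0.31, adjusted p = 0.00027). Hair shaft and sheath markers were lower at PWD14 for each of 9 genes, with a summed level of 61.1 and 97.9 CPM against 1347 and 641 CPM. Of 8 tested macrophage markers 4 were higher and 1 lower, and the sum over all 10 listed was 47.9 and 53.2 CPM at PWD14 against 56.1 and 61.4 CPM at PWD21. In the neutrophil list S100a9 had 3708 and 2118 against 424 and 182 CPM, while Csf3r and Cxcr2 were each at most 0.626 CPM in these libraries. In the adipocyte list Fabp4 had 9339 and 7232 against 1403 and 1058 CPM, while Adipoq, Plin1 and Lep were each at most 0.358 CPM. Their part in the members' changes was not tested.

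**Figure D4:**
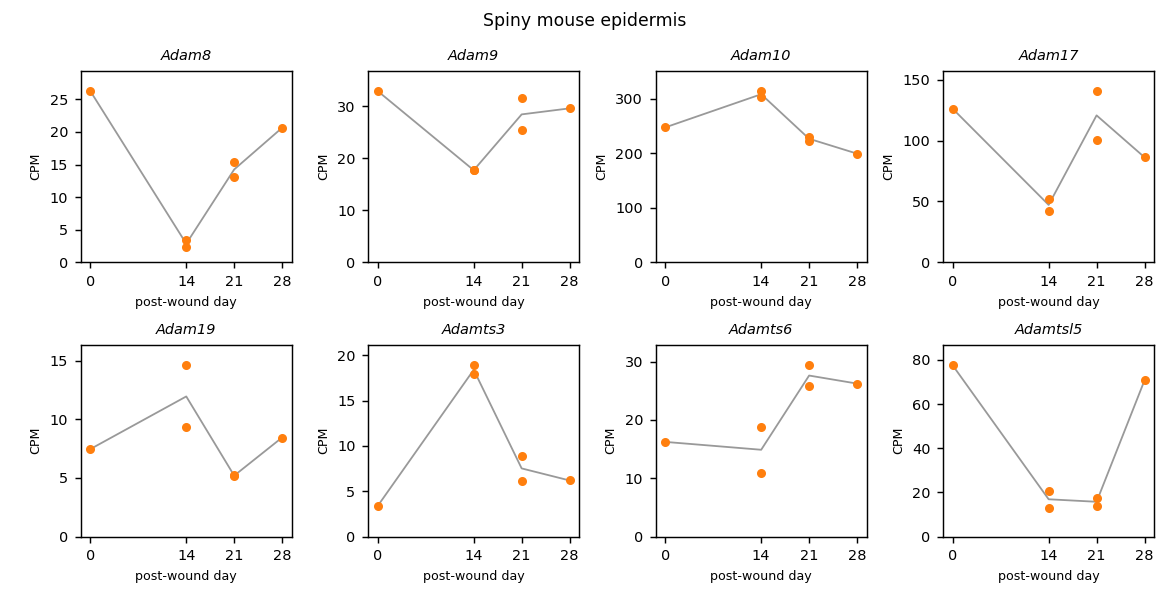
CPM of 8 members in spiny mouse epidermis by post-wound day, with 1 point per library and a grey line through the mean of each day, on axes that start at 0. Adam8 and Adam17 are lowest at day 14, Adamts3 is highest there, and Adamtsl5 is high at days 0 and 28.

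In laboratory mice, wound center was compared with wound margin in each layer, since hair follicles form in the center. In epidermis, 1 of 28 tested members was called, beside 1.24% of all tested genes. This was Adamts2, at 35.0 and 19.0 CPM in the center and 2.41 and 1.88 CPM in the margin (log2 fold change 3.56 ± 0.48, adjusted p = 0.0421). The center libraries did not overlap the margin libraries. The call was lost without the first center library (log2 fold change 3.07). More members were called when either margin library was left out, but the share over all genes in these fits is not given here. Among these members was Adam10, higher in the center without the first margin library (log2 fold change 0.47) and lower without the second (-0.70). At an unadjusted p under 0.05, 8 of 28 members passed, each higher in the center, a share near the 23.5% of all genes in either direction. The share of all genes for this direction alone is not given here. Of the 176 genes called after adjustment, 125 were higher in the center. The 8 members were Adamts2, Adam8, Adam12, Adamts4, Adamts7, Adamts12, Adamts16 and Adamts20. Some had few counts in the margin libraries: 0 and 0 for Adamts20, 15 and 0 for Adamts12, and 1 and 16 for Adamts16. Adam12 had 34.0 and 32.6 CPM in the center and 9.34 and 10.4 CPM in the margin (log2 difference 1.60 ± 0.27, adjusted p = 0.0617). Adam9, Adam10 and Adam17 were not called, at log2 differences of -0.16 ± 0.22, -0.24 ± 0.40 and 0.05 ± 0.23. The margin libraries differed from each other more than the other replicate pairs did, with Adam10 at 279 and 129 CPM and a median fold of 2.16 between them over 19 members, against 1.17 between the center libraries.

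Adamts2 in center epidermis stood at 5.10% of its level in center dermis, and in margin epidermis at 0.533% of its level in margin dermis. The summed level of 15 fibroblast markers in epidermis was 7.97% of that in dermis in the center (2181 and 1770 CPM in the epidermis libraries) and 2.13% in the margin (547 and 309 CPM). Fibroblast markers were higher in center epidermis for 3 of 15 genes, with a median log2 fold change of 2.02, and endothelial markers had a median of 3.61. The part of dermal cells in the epidermis libraries in the result for Adamts2 was not tested. Of the matrix substrates, Col5a1 (log2 fold change 3.16 ± 0.34, adjusted p = 0.0367) and Vcan (log2 fold change 2.23 ± 0.31, adjusted p = 0.0428) were higher in center epidermis, and the inhibitor gene Timp3 (log2 fold change -2.37 ± 0.29, adjusted p = 0.0368) was lower.

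Adamts2 (GRCm38 chr11:50602085-50807573) is shown as the only member called between regions of epidermis, and Adam8 (chr7:139978932-139995207) as the only member called between regions of dermis. The windows are chr11:50601835-50602134, plus strand, and chr7:139992513-139992812, minus strand, again with CANNTG in capitals. The Adam8 window is that of a transcript start at position 139992562, inside the gene and not at its 5′ end, while the Adamts2 window is set on the start of the printed span.
Adamts2: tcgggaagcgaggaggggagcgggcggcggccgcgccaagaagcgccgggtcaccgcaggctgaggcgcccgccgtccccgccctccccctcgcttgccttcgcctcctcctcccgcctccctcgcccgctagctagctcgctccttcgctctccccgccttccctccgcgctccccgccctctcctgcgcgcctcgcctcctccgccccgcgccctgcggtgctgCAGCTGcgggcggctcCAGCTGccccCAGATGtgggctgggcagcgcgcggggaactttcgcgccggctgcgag
Adam8: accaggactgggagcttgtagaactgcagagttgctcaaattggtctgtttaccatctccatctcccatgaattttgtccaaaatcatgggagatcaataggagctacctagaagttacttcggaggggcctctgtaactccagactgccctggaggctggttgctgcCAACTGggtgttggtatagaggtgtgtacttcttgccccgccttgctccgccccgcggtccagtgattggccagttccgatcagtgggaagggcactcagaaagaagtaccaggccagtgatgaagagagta
The Adamts2 window held 3 matches and the Adam8 window held 1. Neither held TGANTCA or TATAAA.

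In dermis, 1 of 39 tested members was called between center and margin, beside 0.85% of all tested genes. Adam8 had 114 and 83.3 CPM in the center and 36.3 and 31.0 CPM in the margin (log2 fold change 1.56 ± 0.25, adjusted p = 0.0162). The groups did not overlap, and the 3 wild-type center libraries of the other set, at 125, 342 and 105 CPM, also lay above both margin libraries. The call was lost without either margin library (adjusted p = 0.185 and 0.380). Adam8 in epidermis had 62.6 and 70.5 CPM in the center and 33.7 and 36.8 CPM in the margin (log2 difference 0.76 ± 0.22, adjusted p = 0.140). Summed macrophage markers were 3740 and 4268 CPM in these center dermis libraries and 2692 and 3454 CPM in the margin, and neutrophil markers 27.8 and 22.5 against 82.8 and 28.0 CPM, and their part in the result was not tested. Adam9 (0.23 ± 0.20), Adam10 (-0.09 ± 0.19), Adam12 (0.36 ± 0.19), Adam17 (0.15 ± 0.22), Adamts4 (0.23 ± 0.26) and Adamts12 (0.75 ± 0.33) were not called (log2 differences, center minus margin). Of 14 keratinocyte markers 6 were lower in center dermis, at 583 and 396 against 1959 and 3759 CPM in sum, and 7 of 9 hair shaft and sheath markers were lower. Among the pathway genes Cdh1 was called, and it was lower in the center (log2 fold change -2.60 ± 0.45, adjusted p = 0.0229).

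The difference of the center-margin contrast between the layers was tested as an interaction over 4 epidermis and 4 dermis libraries. Adamts2 was the 1 member called of 40, with the contrast larger in epidermis by 3.38 ± 0.46 on the log2 scale (adjusted p = 0.00372), beside 3.48% of all genes called. Of the 540 genes called, 519 had this direction and 21 the other, so the direction is not particular to Adamts2. In dermis Adamts2 had 519.5 and 479 CPM in the center and 419 and 386 CPM in the margin. Adam12 was next (1.38 ± 0.34, adjusted p = 0.0513) and did not pass. This test shares its libraries with the region and layer comparisons.

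K14-Cre-Twist1 wound center dermis was compared with wild-type center dermis to ask whether loss of Twist1 in keratinocytes changes the dermis. Twist1 itself had 66.8 and 38.0 CPM in the K14-Cre-Twist1 libraries and 51.6, 32.2 and 94.4 CPM in the wild-type libraries. The deletion is in keratinocytes, so these dermis values do not check it. None of 35 tested members was called by edgeR, beside 0.0565% of all tested genes. At an unadjusted p under 0.05, 4 members were higher and 6 lower in K14-Cre-Twist1, beside 11.5% of all genes. DESeq2 called 3 members, and its share over all genes is not given here. Of the 35, 27 had a negative fold change, and the share over all genes is not given here. The median over the members was -0.35, beside -0.07 over all genes. All these fold changes come from the same 2 K14-Cre-Twist1 libraries, so the members do not count as separate observations.

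The K14-Cre-Twist1 libraries differed strongly from each other. Adamts4 had 77.9 and 6.09 CPM in them and 112, 127 and 119 CPM in the wild-type libraries (log2 difference -1.50 ± 0.75, adjusted p = 0.464). Adamts12 had 151 and 37.7 against 285, 296 and 201 CPM (-1.46 ± 0.51, adjusted p = 0.361), and both values lay below the wild-type range. Adam12 had 595 and 305 against 794, 603 and 721 CPM (-0.64 ± 0.32, adjusted p = 0.471). Adam9 (-0.53 ± 0.34), Adam10 (-0.15 ± 0.24) and Adam17 (-0.28 ± 0.23) had smaller log2 differences. The median fold between the K14-Cre-Twist1 libraries was 2.05 over 27 members. Replicate 2 also carried 31845 CPM of keratinocyte markers, against 952 CPM in replicate 1 and between 29.9 and 111 CPM in the 3 wild-type libraries, and the part of this in the members' values was not tested. Without replicate 1, only replicate 2 stood for the genotype, and more members were called, with the share over all genes not given here.

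Of 37 members averaging 1 CPM or more in either set of wild-type center dermis libraries, 8 were higher and 6 lower in the first set without overlap, and over all 13871 such genes 39.3% did not overlap, so the members' share was close to that of all genes. Adam33 had 58.4 and 59.4 CPM in the first set and 10.9, 3.04 and 9.73 CPM in the second, and 17.0 and 70.2 CPM in K14-Cre-Twist1. Adamts12 had 59.3 and 109.7 CPM in the first set against 285, 296 and 201 CPM in the second. Adamts4 had 57.7 and 46.2 against 112, 127 and 119 CPM, so the first set lay near the margin libraries (41.1 and 47.5 CPM) for this gene. The sets carry the same label, the study gives Twist1+/+ mice as controls of the transgenic line, and mouse line and set cannot be told apart.

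**Figure D5:**
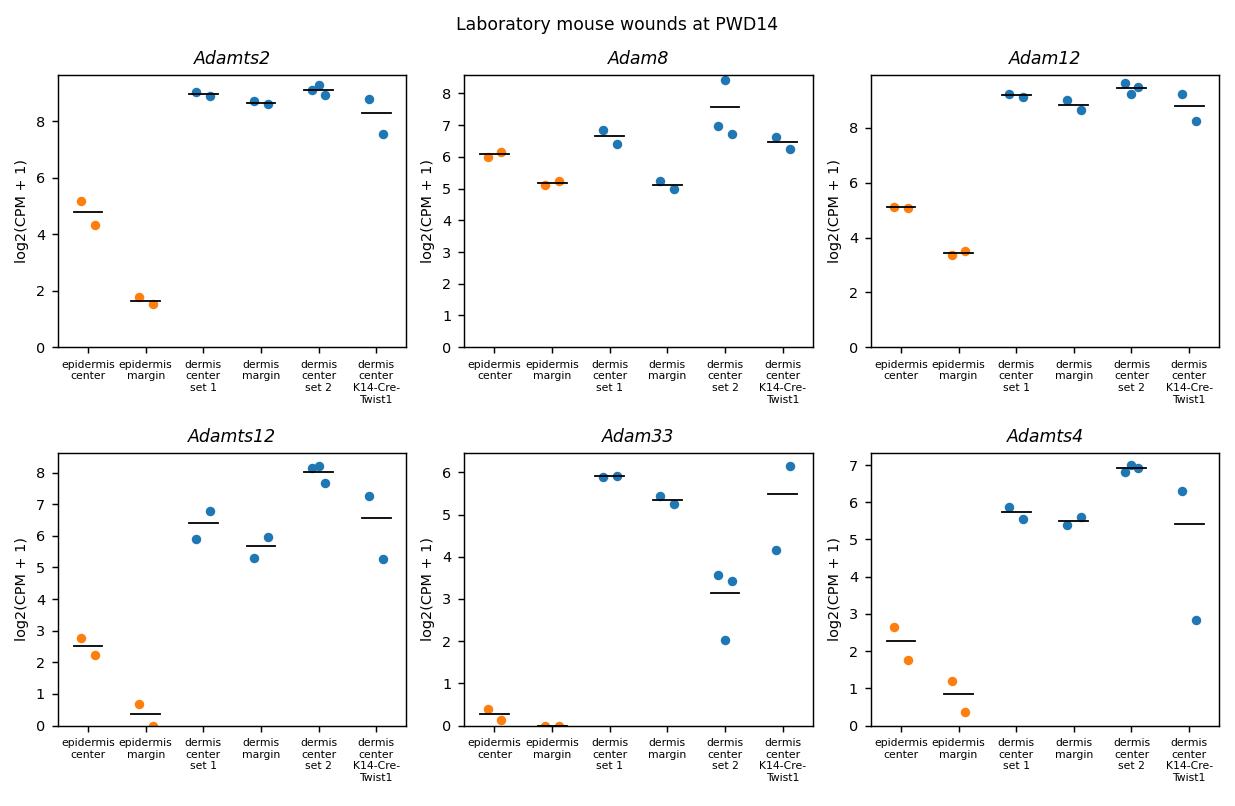
Values of log2(CPM + 1) for 6 members in laboratory mouse libraries, with 1 point per library (orange for epidermis, blue for dermis) and a black line at the mean CPM of each group, where set 1 holds the center libraries compared with the margin and set 2 those compared with K14-Cre-Twist1. Adamts2 is higher in center than in margin epidermis, Adam8 is higher in center than in margin dermis, and Adam33 and Adamts12 differ between the sets.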

How the data were processed

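RNA-seq read counts per gene were taken as deposited for all 25 libraries. The authors made these counts by aligning reads to the laboratory mouse genome (mm10), spiny mouse reads included, and counting reads on RefSeq genes. The submitters' processing notes name STAR 2.4.1d and HTSeq 0.6.0, and the strand option and quality minimum of the counting are not given in the sources used here. Between 23.3% and 34.4% of reads in laboratory mouse libraries and between 38.0% and 60.5% in spiny mouse libraries had been set aside as of low alignment quality, and rows that name no gene were left out.

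Each comparison was fitted across all genes in edgeR 4.0.16 (R 4.3.3), with edgeR's default filter on low counts, TMM scaling and the quasi-likelihood test, and p-values were adjusted by Benjamini-Hochberg over all tested genes. Only the libraries of a comparison entered its fit. The error after ± is 1 SE. Both scaling and filter were varied, as were the tool (DESeq2 1.42.0), the libraries in the fit and the exclusion of each library in turn. The fits were tested on simulated data. The members and gene lists were chosen with earlier results of these data known. Members named by rule are those called, the 5 highest by mean CPM in each layer of each species, Adam9, Adam10, Adam12 and Adam17 in each comparison (the study's inhibitor targets), and Adamts4 and Adamts12 in dermis. Other members were named after their values were seen. Pathway genes were to be at most 5 per comparison by fold change, and some others are named as substrates of a member. The division of wild-type center dermis into 2 and 3 libraries follows the library names in the study's supplement. Promoter windows are RefSeq's on GRCm38.p6, and 31 of 57 members had one.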

Additional observations from a re-analysis of the deposited data

Results flagged for a closer look

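A total of 3 members had a library far from the others among the 5 wild-type wound center dermis libraries, of 33 members examined. The limit used marks about 1 in 20 groups by chance when the 5 libraries are alike. These libraries come from both sets and are shared by all members, so that rate need not hold here. Adam8 reached 342 CPM in 1 library of the second set, against 83.3 to 125 CPM in the other 4, and the summed neutrophil markers of this group ranged from 22.5 to 782 CPM. Adam10 had 104 CPM in the library farthest from the rest. Adam1a had 18.7 CPM in the first library, and its exons overlap those of other genes on the same strand. Adamts2 differed between the layers in its center-margin contrast by 3.38 on the log2 scale, tested as an interaction.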

How the results depend on the processing

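Alternatives gave 1820 values of the members named for each comparison, other members being covered only by the counts below. Of these values, 1685 kept their side of the threshold, 110 lost a call, 21 gained one and 4 reversed. A reversal is a change of sign where the main fit or the alternative called the member. Changes of sign with no call in either fit are counted among the 1685. The reversals were Adam10 in epidermis, center against margin, without the first margin library (0.47, against -0.70 without the second), and, with library size alone, Adam10 in spiny mouse epidermis (-0.048) and Adam10 (-0.15) and Adam15 (-0.056) between layers of the wound center. Library size alone moved the median of all genes to -0.59, -0.80 and -0.98 in the spiny mouse epidermis, center layer and margin layer comparisons.

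Members called between center and margin of epidermis numbered 4 with DESeq2, 0 with the older quasi-likelihood method of edgeR, 3 with all libraries of the species in one fit and 0 to 13 without a library. In dermis they numbered 2, 0 and 0, and 0 to 1 without a library. For K14-Cre-Twist1 they numbered 3 with DESeq2 and 0 to 13 without a library. In spiny mouse epidermis they were 5 in one fit and 4 to 11 without a library, and in spiny mouse dermis 14 to 26 without a library. Between layers, requiring 10 counts in every library, which removed members low in epidermis, left 15 in the spiny mouse and 11 in the margin. Without a library the calls were 27 to 32 in the spiny mouse, 22 to 28 in the center and 23 to 27 in the margin. The interaction gave 2 with library size alone, 5 with DESeq2 and 1 to 4 without a library. All these counts are given without the share of all genes called under the same setting. Other causes were not tested. No paired analysis was possible because the labels give no replicate numbers shared between the groups compared.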
